A study of Mus musculus with 16 samples.

Results

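The 10 genes described here encode regulators of mitochondrial apoptosis of the BCL-2 family: Bcl2, Bcl2l1, Mcl1, Bax, Bak1, Bcl2l11, Bbc3, Pmaip1, Bid and Bad. They were chosen by name, without a threshold on any measured value, but with earlier results of these data known. All 10 were found among 23420 genes with RNA counts and among 22269 gene intervals with ChIP counts. The cells were mouse CD4 T cells, sorted as naive cells and stimulated with antibodies to CD3 and CD28. Ezh2KO cells came from Ezh2fl/fl.CD4Cre mice, in which a Cre driven by Cd4 sequences deletes floxed Ezh2 in T cells, and the labels give their genotype as Ezh2-/-. The controls were cells of Ezh2fl/fl mice, which carry the same floxed allele. Cells of each genotype were grown as induced regulatory T cells (iTreg), with TGF-beta1 at 5 ng/ml and IL-2 at 200 U/ml, or as neutrally activated Th0 cells with 50 U of IL-2. RNA was sequenced from 3 biological replicates in each of 4 groups, which are iTreg Ezh2KO, iTreg Ezh2fl/fl, Th0 Ezh2KO and Th0 Ezh2fl/fl. Chromatin carrying histone H3 trimethylated at lysine 27 (H3K27me3), the mark that EZH2 writes, was sequenced from 2 Th0 Ezh2KO and 2 Th0 Ezh2fl/fl replicates. The labels give no age or sex of the mice and do not say whether mice were pooled. The titles of the iTreg libraries give day 5 and those of the Th0 libraries day 4, while the protocol gives harvest on day 4 for both, so a difference of a day between cultures cannot be told apart from the culture itself.

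Proteins of the BCL-2 family decide whether the outer mitochondrial membrane is opened, the step that releases cytochrome c and starts the caspase cascade. BCL-2, BCL-XL (from Bcl2l1) and MCL-1 hold the pore formers BAX and BAK in check, and the BH3-only proteins BIM (Bcl2l11), PUMA (Bbc3), NOXA (Pmaip1), BID and BAD free or activate the pore formers. In T cells, BIM is a main mediator of the death that follows antigen clearance or cytokine withdrawal, MCL-1 and BCL-2 keep resting and memory cells alive, and BCL-XL is induced on activation.

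The RNA libraries held 21910114 to 28443427 counted reads and the ChIP libraries 11124172 to 15103496. Each library is named by the genotype and number in its title, and RNA levels are read counts scaled to a common library total (CPM). Ezh2 had 48.7 to 123 CPM in iTreg Ezh2KO cells and 166 to 251 CPM in iTreg Ezh2fl/fl cells, a log2 change of -1.18 (95% interval -1.85 to -0.51, adjusted p = 0.0235). In Th0 it had 148 to 169 CPM in Ezh2KO cells and 295 to 312 CPM in Ezh2fl/fl cells, a log2 change of -0.99 (95% interval -1.66 to -0.32, adjusted p = 0.0618) over all 12 RNA libraries and an adjusted p of 7.67e-08 in the 6 Th0 libraries alone. The call in iTreg was lost in the 6 iTreg libraries alone (0.203) and without Ezh2fl/fl.154 (0.0781) or Ezh2fl/fl.155 (0.0802), and the reads that remain do not show whether the deleted exons are among them. Foxp3, which defines regulatory T cells, had 65.2 to 90.9 CPM in iTreg Ezh2KO cells against 849.5 to 979 CPM in iTreg Ezh2fl/fl cells, so the defining gene of the iTreg label was low in the Ezh2KO libraries. Cd4, the defining gene of these T cells, had 388 to 501 CPM in iTreg Ezh2KO against 543 to 631 CPM in iTreg Ezh2fl/fl libraries, and 246 to 281 CPM in Th0 Ezh2KO against 462 to 509 CPM in Th0 Ezh2fl/fl libraries. It fell in Ezh2KO cells of both cultures, by 0.44 in iTreg (adjusted p = 0.0368, and 0.289 in the 6 iTreg libraries alone) and by 0.88 in Th0 (adjusted p = 0.00171) on the log2 scale. The iTreg call of Cd4 was lost on leaving out any 1 library other than those named Ezh2KO.165, up to 0.117 without Ezh2KO.150. One library of each iTreg group stood apart from the other 2 of its group: Ezh2KO.165, at a chi-square of 418 and 446 per degree of freedom against the others, and Ezh2fl/fl.177, at 164 and 134, while the other pairs within a group gave 3.70 to 16.4. Both libraries named Ezh2KO.165, one per culture, had 27248 (Th0) and 25036 (iTreg) reads of Xist, and the other 10 libraries had 2 to 21. Ddx3y, on the Y chromosome, had 10 (Th0) and 4 (iTreg) reads in those 2 and 2114 to 4635 in the others. No pair of libraries within a group agreed within sampling noise, which cannot show that they came from different mice. Each was counted as a separate replicate because the design calls the libraries biological replicates. Summed markers of other cells also differed between groups. Of 8 B cell markers, 8 rose in Th0 Ezh2KO cells and 5 fell in iTreg Ezh2KO cells. The B cell markers summed to 94.6 to 219 CPM in Th0 Ezh2KO and 30.1 to 54.9 CPM in Th0 Ezh2fl/fl libraries, and to 3.90 to 5.93 CPM in iTreg Ezh2KO and 12.6 to 13.6 CPM in iTreg Ezh2fl/fl libraries. The 6 NK cell markers summed to 283 to 463 CPM in Th0 Ezh2KO against 32.7 to 35.9 CPM in Th0 Ezh2fl/fl, and to 136 to 450.3 CPM in iTreg Ezh2KO against 35.1 to 54.6 CPM in iTreg Ezh2fl/fl libraries. Of these, 3 of the 4 tested rose in Th0 and 4 of 4 in iTreg, while Klra8 had no reads in any library and Ncr1, a receptor that defines NK cells, did not exceed 0.149 CPM. Cd8a and Cd8b1 together reached 39.6 to 138 CPM in iTreg Ezh2KO against 18.0 to 26.7 CPM in iTreg Ezh2fl/fl, and 7 myeloid markers summed to at most 27.4 CPM in any library. The 8 CD4 T cell markers summed to 3436 to 3714 CPM in Th0 Ezh2KO against 4202 to 4355 CPM in Th0 Ezh2fl/fl, with no overlap, and to 3860.4 to 4488 CPM in iTreg Ezh2KO against 3975 to 4031 CPM in iTreg Ezh2fl/fl libraries; 3 of the 8 fell in Th0, and in iTreg 3 fell and 2 rose. The part of these cells and libraries in the results that follow was not tested except where values without a library are given, and in bulk RNA fewer cells of a type and less RNA per cell cannot be told apart.

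All 10 genes were expressed in every library. Compared between genes per length of transcript, as CPM per kilobase (RPKM), the pore former Bax was highest in Th0 cells, at 191 ± 4.88 RPKM in Ezh2KO and 152.9 ± 8.82 RPKM in Ezh2fl/fl cells (mean ± SD, n = 3 each, as for all means here). Bak1, Mcl1, Bcl2 and Bcl2l1 followed within 40.4 to 71.4 RPKM in either Th0 genotype. The BH3-only genes were lower, between 3.58 RPKM (Bcl2l11 in Ezh2fl/fl) and 17.6 RPKM (Bid in Ezh2KO). In iTreg cells Mcl1 averaged 123 ± 74.8 RPKM in Ezh2KO and 140.3 ± 37.5 RPKM in Ezh2fl/fl, the highest mean of the 10 in Ezh2fl/fl and the second after Bax in Ezh2KO, where Bax averaged 136 ± 44.0 RPKM. The iTreg means and SDs include libraries Ezh2KO.165 and Ezh2fl/fl.177. Over the other 2 Ezh2KO libraries Mcl1 averaged 80.2 RPKM and came after Bax (161) and Bcl2 (89.7), and over the other 2 Ezh2fl/fl libraries Mcl1 stayed highest at 119 RPKM. The low RPKM of Bcl2l11 rests on its listed length of 14685 bases. Within genes, the groups fell into several orders. Bcl2l1, Bax, Bak1 and Bid ran Th0 Ezh2KO, Th0 Ezh2fl/fl, iTreg Ezh2KO, iTreg Ezh2fl/fl from high to low; both Th0 groups were apart from each other for all 4 genes, and both iTreg groups overlapped for all 4. The neighbours Th0 Ezh2fl/fl and iTreg Ezh2KO were apart for Bcl2l1 and Bak1 and overlapped for Bax and Bid. Bcl2, Bcl2l11 and Bbc3 were highest in iTreg Ezh2KO and next in iTreg Ezh2fl/fl. Their neighbouring ranges overlapped down to the third group, and of neighbours in the order only both Th0 groups were apart. Mcl1 was highest in iTreg Ezh2fl/fl, then iTreg Ezh2KO, Th0 Ezh2fl/fl and Th0 Ezh2KO, with the last 3 apart from each other. For Pmaip1 the order was iTreg Ezh2KO, Th0 Ezh2KO, iTreg Ezh2fl/fl and Th0 Ezh2fl/fl, and only the last was apart from its neighbour. Bad averaged 11.4 to 13.2 CPM over the 4 groups and all neighbours overlapped.

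**Figure D1:**
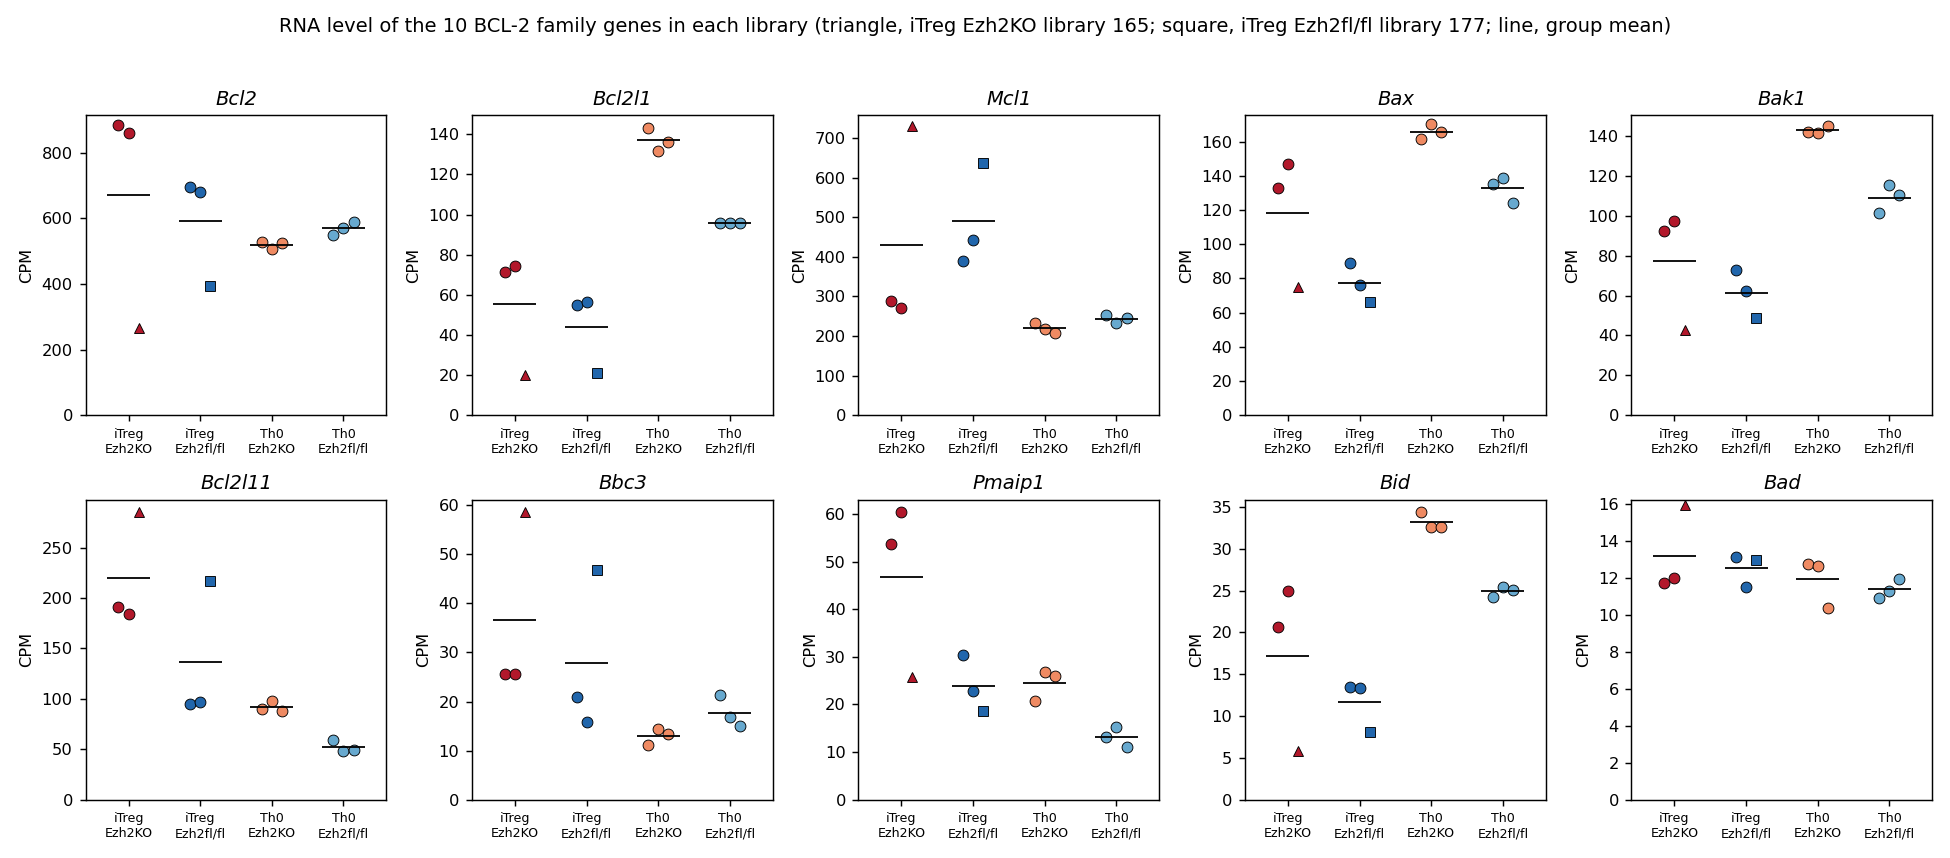
CPM (y axis, linear from 0) of each of the 10 genes in the 12 RNA libraries, by group (x axis), with a line at the group mean and 1 point per library. The 3 Th0 libraries of a genotype lie close together, and the triangle (iTreg Ezh2KO.165) and square (iTreg Ezh2fl/fl.177) lie away from their groups, low for Bcl2, Bcl2l1, Bax, Bak1 and Bid and high for Mcl1, Bcl2l11 and Bbc3.

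In Th0 culture, none of the 10 genes passed the test for a change with Ezh2 deletion when all 12 libraries shared an estimate of the spread. The test was edgeR's quasi-likelihood F test with Benjamini-Hochberg adjustment over 12845 genes, at 0.05, which called 1536 genes (12%), 8.74% higher and 3.22% lower. At an unadjusted p under 0.05 the count was 2 of 10, for Pmaip1 and Bcl2l11, where 23.2% of all genes were under it, and DESeq2 also called 0, where it called 15.9% of all genes. Fitted on the 6 Th0 libraries alone, which leaves out the spread of the iTreg libraries, the same test called 9 of the 10 genes, 6 higher (Bcl2l1, Bax, Bak1, Bcl2l11, Pmaip1 and Bid) and 3 lower (Bcl2, Mcl1 and Bbc3), where 52.1% of all genes were called, 26.5% higher and 25.6% lower. The same 9 were the genes whose Ezh2KO and Ezh2fl/fl ranges of CPM did not overlap, against 59.2% of all genes. The median log2 change was 0.32 over the 10 genes and -0.00173 over all genes tested.

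Among the survival factors, Bcl2l1 differed most in Th0. It had 143, 132 and 136 CPM in Ezh2KO.165, then Ezh2KO.174, then Ezh2KO.175, against 95.9, 95.6 and 95.9 CPM in libraries Ezh2fl/fl.173, Ezh2fl/fl.176 and Ezh2fl/fl.177, and later values follow these library orders. Every Ezh2KO library was above every Ezh2fl/fl library, and the controls were nearly identical. The log2 change was 0.48 (95% interval -0.54 to 1.51, adjusted p = 0.649) over 12 libraries, with an adjusted p of 4.57e-06 in the 6 Th0 libraries alone. Bcl2 was lower and the gap was small, 529, 506 and 525 CPM in Ezh2KO against 548, 571 and 589.7 CPM in Ezh2fl/fl, a log2 change of -0.16 (95% interval -1.01 to 0.68, adjusted p = 0.899) and 0.00643 in Th0 alone. Mcl1, whose product is turned over quickly, had 232, 218 and 207 CPM in Ezh2KO and 254, 232 and 245 CPM in Ezh2fl/fl, a log2 change of -0.19 (95% interval -0.95 to 0.58, adjusted p = 0.861) and 0.00924 in Th0 alone. For Mcl1 the highest Ezh2KO library came within 1 CPM of the lowest control.

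The values of both pore formers were higher in Ezh2KO Th0 cells. Bax had 162, 170.1 and 166 CPM in Ezh2KO against 135, 139 and 124 CPM in Ezh2fl/fl, and Bak1 had 142, 142 and 145 CPM against 101, 115 and 110.3 CPM. Neither gene's ranges overlapped. The log2 change was 0.29 (95% interval -0.20 to 0.77, adjusted p = 0.532) for Bax and 0.36 (95% interval -0.24 to 0.96, adjusted p = 0.526) for Bak1 over 12 libraries, and the adjusted p in Th0 alone was 0.000723 for Bax and 0.00016 for Bak1.

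The BH3-only genes went in both directions. Bcl2l11, encoding BIM, had 90.4, 98.0 and 87.6 CPM in Ezh2KO against 59.5, 48.4 and 49.6 CPM in Ezh2fl/fl Th0 cells, a log2 change of 0.78 (95% interval 0.10 to 1.45, adjusted p = 0.149). Pmaip1, encoding the MCL-1 antagonist NOXA, had 20.6, 26.8 and 26.0 CPM against 13.3, 15.3 and 11 CPM, a log2 change of 0.86 (95% interval 0.18 to 1.54, adjusted p = 0.108). These were the largest differences of the 10 in this culture, and both pairs of ranges were apart. In Th0 alone the adjusted p was 5.74e-05 for Bcl2l11 and 0.00156 for Pmaip1; without iTreg Ezh2KO.165, whose spread the fit shares, Pmaip1 passed at 0.0093, where 27.1% of all genes passed. Without iTreg Ezh2fl/fl.177, Bcl2l11 passed at 0.0168, where 13.9% did. Bid, which caspase-8 cleaves to link death receptors to mitochondria, had 34.4, 32.6 and 32.6 CPM in Ezh2KO against 24.2, 25.5 and 25.01 CPM in Ezh2fl/fl, a log2 change of 0.38 (95% interval -0.53 to 1.29, adjusted p = 0.707) and 0.000209 in Th0 alone. Bbc3, the p53 target that encodes PUMA, was the BH3-only gene with lower values, 11.2, 14.4 and 13.4 CPM in Ezh2KO against 21.3, 16.8 and 15.05 CPM in Ezh2fl/fl, a log2 change of -0.48 (95% interval -1.43 to 0.47, adjusted p = 0.618) and 0.024 in Th0 alone. Bad, which growth factor signalling inactivates by phosphorylation, had 12.7, 12.6 and 10.4 CPM against 10.9, 11.3 and 11.9 CPM; its groups overlapped and its interval, -0.29 to 0.36 on the log2 scale, was the narrowest of the 10.

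**Figure D2:**
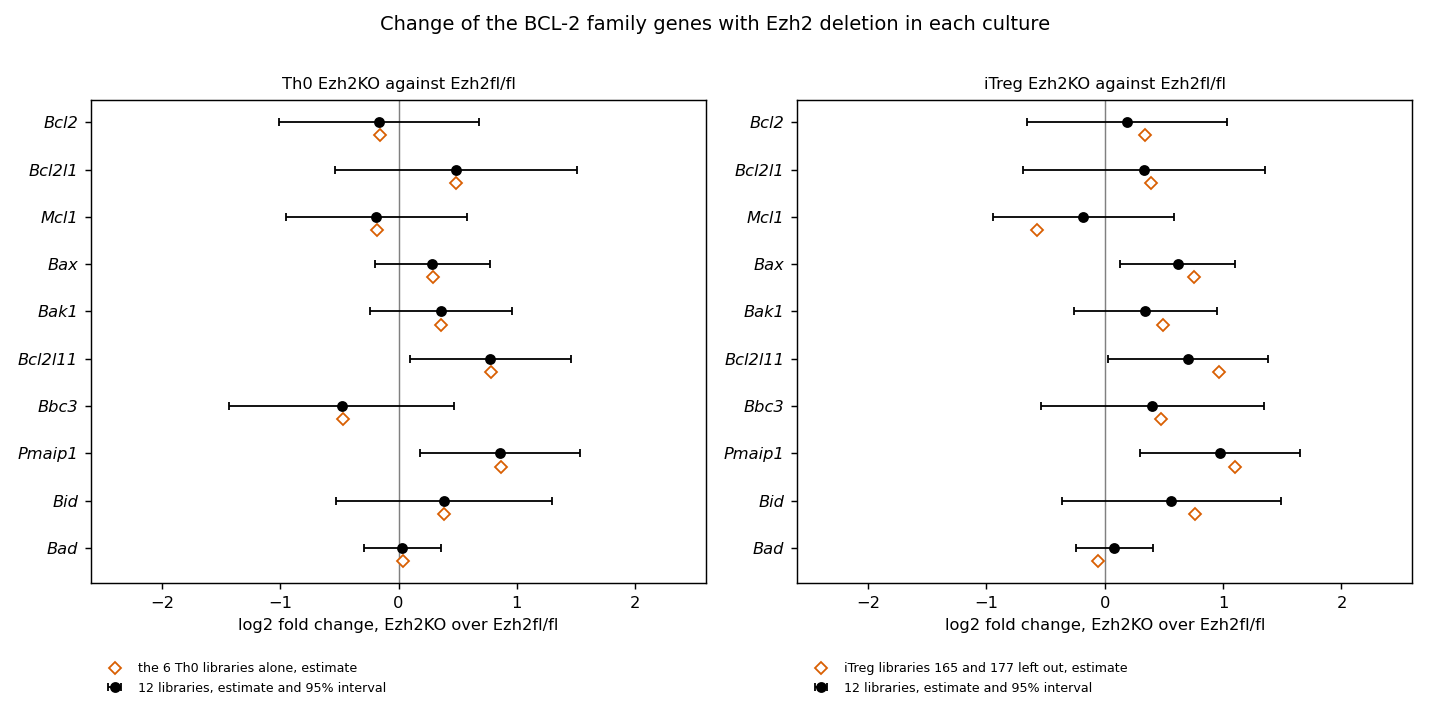
Log2 fold change of Ezh2KO over Ezh2fl/fl (x axis) for each gene (y axis) in Th0 (left) and iTreg culture (right); black points and bars are the estimate and 95% interval over 12 libraries, and open diamonds the estimate from the 6 Th0 libraries alone (left) or without iTreg libraries Ezh2KO.165 and Ezh2fl/fl.177 (right). Pmaip1 and Bcl2l11 lie farthest to the right in Th0 at 0.86 and 0.78, and in iTreg their diamonds reach 1.10 and 0.97.

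In iTreg culture, again none of the 10 genes passed over 12 libraries, where the test called 2147 genes (16.7%), 9.45% higher and 7.26% lower. At an unadjusted p under 0.05 there were 3 (Pmaip1, Bax and Bcl2l11), where 27.9% of all genes were under it, and DESeq2 called 1, Pmaip1, where it called 20% of all genes. In no gene were the iTreg Ezh2KO and Ezh2fl/fl ranges apart, against 25.5% of all genes. The count moved with the libraries that stood apart. Without Ezh2KO.165, 6 genes were called, with Bcl2, Bax, Bak1, Bid and Pmaip1 higher and Mcl1 lower, where 44.2% of all genes were called, 21% higher and 23.3% lower. Without both Ezh2KO.165 and Ezh2fl/fl.177, 9 were called, all but Bad, with only Mcl1 lower, where 57.1% of all genes were called, 28.7% higher and 28.3% lower. With the 6 iTreg libraries alone 0 were called, where 4.34% of all genes were, and 1 had an unadjusted p under 0.05, against 17.1% of all genes. The median log2 change was 0.37 over the 10 genes and 0.01 over all genes tested.

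Pmaip1 came closest to a call. It had 53.8, 60.5 and 25.8 CPM in Ezh2KO.150, then Ezh2KO.153, then Ezh2KO.165, against 30.3, 22.8 and 18.6 CPM in libraries Ezh2fl/fl.154, Ezh2fl/fl.155 and Ezh2fl/fl.177. Libraries Ezh2KO.165 and Ezh2fl/fl.177 had the lowest value of their groups, and Ezh2KO.165 fell within the control range. The log2 change was 0.97 (95% interval 0.30 to 1.65, adjusted p = 0.0541), and the adjusted p was 0.00122 without Ezh2KO.165. Bax had 133, 147 and 74.8 CPM in Ezh2KO against 89.2, 76.4 and 66.3 CPM in Ezh2fl/fl, a log2 change of 0.62 (95% interval 0.13 to 1.10, adjusted p = 0.0858), and 0.000397 without Ezh2KO.165. Bcl2l11 had 192, 184 and 285 CPM in Ezh2KO and 94.7, 97.4 and 217 CPM in Ezh2fl/fl, a log2 change of 0.70 (95% interval 0.03 to 1.38, adjusted p = 0.162). Here Ezh2KO.165 and Ezh2fl/fl.177 were the highest of their groups, and only Ezh2fl/fl.177 reached into the Ezh2KO range; without Ezh2fl/fl.177 the adjusted p was 0.00368, with 16.2% of all genes called. Without Ezh2KO.165 its log2 change was 0.47 (adjusted p = 0.226).

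Bcl2 had 883, 861 and 267 CPM in iTreg Ezh2KO against 696, 681 and 395 CPM in iTreg Ezh2fl/fl, and Bcl2l1 had 71.2, 74.4 and 20.0 CPM against 54.8, 56.2 and 21.0 CPM. In both genes the first 2 Ezh2KO libraries were above every control and library Ezh2KO.165 was below every control. Mcl1 showed the reverse, with 289, 270.3 and 731 CPM in Ezh2KO against 389, 443 and 637 CPM in Ezh2fl/fl. The log2 change over 12 libraries was 0.19 (95% interval -0.66 to 1.03, adjusted p = 0.831) for Bcl2, 0.33 (95% interval -0.69 to 1.35, adjusted p = 0.737) for Bcl2l1 and -0.18 (95% interval -0.94 to 0.58, adjusted p = 0.816) for Mcl1. Without Ezh2KO.165 and Ezh2fl/fl.177 it was 0.34 for Bcl2 (adjusted p = 3.28e-05), 0.39 for Bcl2l1 (5.47e-05) and -0.57 for Mcl1 (8.48e-06). Bak1 had 92.6, 97.6 and 42.5 CPM in Ezh2KO against 73.0, 62.5 and 48.6 CPM in Ezh2fl/fl, and Bid had 20.6, 24.9 and 5.84 CPM against 13.5, 13.3 and 8.10 CPM. Both followed the pattern of Bcl2, with Ezh2KO.165 below the controls, and their log2 changes were 0.34 (95% interval -0.26 to 0.94, adjusted p = 0.491) for Bak1 and 0.56 (95% interval -0.36 to 1.49, adjusted p = 0.458) for Bid. Bbc3 had 25.6, 25.7 and 58.7 CPM in Ezh2KO against 21.0, 15.8 and 46.9 CPM in Ezh2fl/fl, a log2 change of 0.40 (95% interval -0.54 to 1.35, adjusted p = 0.637). Its sign depended on 1 library, with -0.11 without Ezh2KO.165. Bad ranged over 11.7 to 15.9 CPM in Ezh2KO and 11.5 to 13.1 CPM in Ezh2fl/fl.

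Whether Ezh2 deletion acted differently in the cultures was tested as the difference between the 2 genotype changes, iTreg minus Th0. None of the 10 genes was called over 12 libraries, where 4.49% of genes were, 1.63% more positive in iTreg and 2.86% more negative. None of the 10 had an unadjusted p under 0.05 either, where 15.5% of all genes had, and DESeq2 called 0 of them, where it called 8.54% of all genes. The largest estimate was that of Bbc3, 0.88 (95% interval -0.46 to 2.22, adjusted p = 0.611), whose changes were 0.40 in iTreg and -0.48 in Th0. Leaving out iTreg Ezh2KO.165 called Bax (0.57, adjusted p = 0.0314), where 19.6% of genes were called. Leaving out both Ezh2KO.165 and Ezh2fl/fl.177 called 5, with Bcl2 (0.50), Bax (0.47), Bid (0.38) and Bbc3 (0.95) more positive in iTreg and Mcl1 (-0.38) more negative, where 41.2% of genes were called, 19.9% more positive and 21.3% more negative. Of these 5, Bcl2 and Bbc3 had genotype changes on opposite sides of 0 without those libraries, 0.34 in iTreg and -0.17 in Th0 for Bcl2, and, for Bbc3, 0.48 in iTreg and -0.48 in Th0.

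The effect of culture was asked within each genotype, and the 2 genotypes share no library. In Ezh2KO cells, iTreg against Th0 called 3 of the 10 genes, with Bcl2l11 and Bbc3 higher and Bak1 lower, where 25.4% of all genes were called, 16.6% higher and 8.75% lower. In Ezh2fl/fl cells it called 3, with Bcl2l11 higher and Bax and Bak1 lower, where 31.4% of all genes were called, 19.9% higher and 11.5% lower. DESeq2 called 6 in each genotype, where it called 35.6% of all genes in Ezh2KO and 38.2% in Ezh2fl/fl. At an unadjusted p under 0.05 there were 8 in Ezh2KO and 7 in Ezh2fl/fl, where 43.7% of all genes were under it in Ezh2KO and 46.9% in Ezh2fl/fl. Ranges that did not overlap between cultures were found for 7 genes in each genotype, against 58.3% of all genes in Ezh2KO and 69% in Ezh2fl/fl. The counts of 3 called and of 7 apart are near the shares among all genes and are no result about the family. Without iTreg Ezh2KO.165 and Ezh2fl/fl.177, 9 genes were called in Ezh2KO and 8 in Ezh2fl/fl, where 57.6% and 66.8% of all genes were.

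Bcl2l11 rose in iTreg culture of both genotypes. Bcl2l11 had 192, 184 and 285 CPM in iTreg and 90.4, 98.0 and 87.6 CPM in Th0 cells of Ezh2KO mice, and 94.7, 97.4 and 217 CPM in iTreg and 59.5, 48.4 and 49.6 CPM in Th0 cells of Ezh2fl/fl mice. In each genotype every iTreg library was above every Th0 library. The log2 change was 1.23 (95% interval 0.55 to 1.91, adjusted p = 0.0201) in Ezh2KO and 1.30 (95% interval 0.62 to 1.99, adjusted p = 0.0121) in Ezh2fl/fl. Leaving out any of the 3 Th0 Ezh2KO libraries ended the call in Ezh2KO, with an adjusted p of 0.062 to 0.0728, and leaving out Th0 Ezh2fl/fl.176 ended it in Ezh2fl/fl (0.0517). Without both libraries named Ezh2KO.165 the adjusted p in Ezh2KO was 0.0888, and without iTreg Ezh2fl/fl.177 the log2 change in Ezh2fl/fl was 0.81 (adjusted p = 0.0176). Bbc3 rose in iTreg culture of Ezh2KO cells. It had 25.6, 25.7 and 58.7 CPM in iTreg against 11.2, 14.4 and 13.4 CPM in Th0, a log2 change of 1.47 (95% interval 0.50 to 2.43, adjusted p = 0.0355). Without iTreg Ezh2KO.165 it was 0.95 with an adjusted p of 0.083, and leaving out any single Th0 library also ended the call, with an adjusted p of up to 0.115. In Ezh2fl/fl cells Bbc3 had 21.0, 15.8 and 46.9 CPM in iTreg against 21.3, 16.8 and 15.05 CPM in Th0. The iTreg value of Ezh2fl/fl.177 was above all Th0 values and the other 2 were within or near their range, the log2 change was 0.58 (95% interval -0.36 to 1.53, adjusted p = 0.289), and it was -0.00365 without Ezh2KO.165 and Ezh2fl/fl.177. Pmaip1 missed the threshold, with a log2 change of 0.90 (95% interval 0.23 to 1.58, adjusted p = 0.0522) in Ezh2KO and 0.79 (95% interval 0.11 to 1.47, adjusted p = 0.0712) in Ezh2fl/fl.

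Among the pore formers, Bak1 fell in iTreg culture of both genotypes and Bax fell in that of Ezh2fl/fl cells. Bak1 had 92.6, 97.6 and 42.5 CPM in iTreg and 142, 142 and 145 CPM in Th0 cells of Ezh2KO mice, and 73.0, 62.5 and 48.6 CPM in iTreg and 101, 115 and 110.3 CPM in Th0 cells of Ezh2fl/fl mice, and its ranges were apart in both genotypes. Its log2 change was -0.91 (95% interval -1.51 to -0.31, adjusted p = 0.0362) in Ezh2KO and -0.90 (95% interval -1.50 to -0.29, adjusted p = 0.0322) in Ezh2fl/fl. Bax had 89.2, 76.4 and 66.3 CPM in iTreg against 135, 139 and 124 CPM in Th0 cells of Ezh2fl/fl mice, a log2 change of -0.85 (95% interval -1.34 to -0.36, adjusted p = 0.0176). In Ezh2KO cells Bax had 133, 147 and 74.8 CPM in iTreg against 162, 170.1 and 166 CPM in Th0, a log2 change of -0.52 (95% interval -1.003 to -0.03, adjusted p = 0.0969). Each of these 3 calls was lost in some single-library omissions, with an adjusted p of up to 0.0972 for Bak1 in Ezh2KO (without Th0 Ezh2KO.175), 0.112 for Bak1 in Ezh2fl/fl and 0.0657 for Bax in Ezh2fl/fl (both without iTreg Ezh2fl/fl.177), while the estimates of these genes kept their sign in every omission.

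Bcl2l1 and Mcl1 came close to the threshold in both genotypes, on opposite sides of 0. The log2 change of Bcl2l1 was -1.34 (95% interval -2.38 to -0.30, adjusted p = 0.0581) in Ezh2KO and -1.19 (95% interval -2.22 to -0.15, adjusted p = 0.0738) in Ezh2fl/fl, and that of Mcl1 was 0.94 (95% interval 0.17 to 1.71, adjusted p = 0.068) in Ezh2KO and 0.94 (95% interval 0.16 to 1.71, adjusted p = 0.0627) in Ezh2fl/fl. For both genes the iTreg and Th0 ranges were apart in each genotype, and DESeq2 called both in both genotypes. Without iTreg Ezh2KO.165 the change in Ezh2KO was -0.94 for Bcl2l1 (adjusted p = 0.0556) and 0.32 for Mcl1 (0.173), and without iTreg Ezh2fl/fl.177 that in Ezh2fl/fl was -0.85 for Bcl2l1 (0.203) and 0.70 for Mcl1 (0.207). Bid had a log2 change of -0.98 (95% interval -1.91 to -0.06, adjusted p = 0.0977) in Ezh2KO and -1.16 (95% interval -2.09 to -0.23, adjusted p = 0.0573) in Ezh2fl/fl. Bcl2 had a log2 change of 0.34 (95% interval -0.51 to 1.18, adjusted p = 0.494) in Ezh2KO and -0.01 (95% interval -0.86 to 0.83, adjusted p = 0.978) in Ezh2fl/fl, with iTreg Ezh2KO.165 below and the other 2 iTreg Ezh2KO libraries above all Th0 values. Bad differed by 0.12 in Ezh2KO and 0.07 in Ezh2fl/fl.

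**Figure D3:**
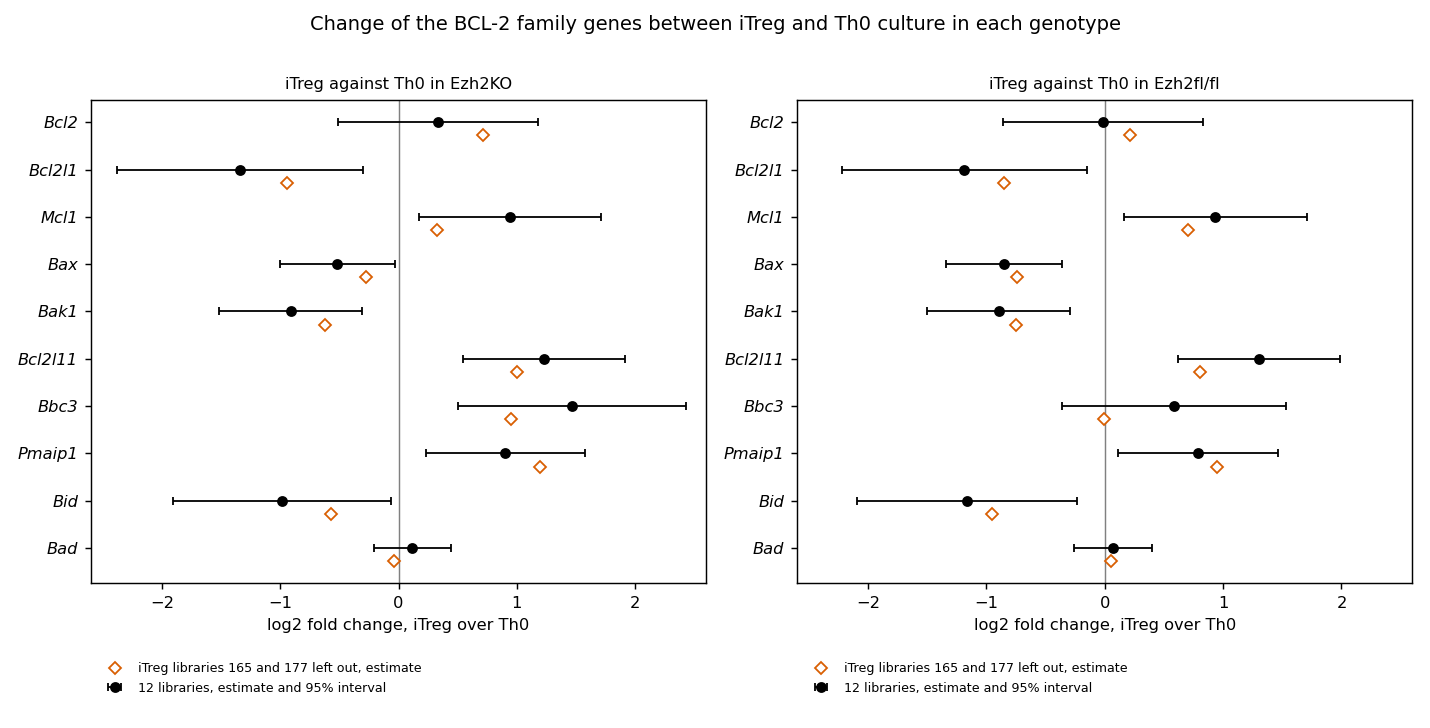
Log2 fold change of iTreg over Th0 (x axis) for each gene (y axis) in Ezh2KO (left) and Ezh2fl/fl cells (right), with black points and bars for the estimate and 95% interval over 12 libraries and open diamonds for the estimate without iTreg libraries Ezh2KO.165 and Ezh2fl/fl.177. The bars of Bcl2l11 lie to the right of 0 and those of Bak1 to the left in both panels, and the diamond of Bbc3 in Ezh2fl/fl lies at 0.

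Promoter sequence was looked at for the members. Bcl2l11 and Bbc3 are known targets of FOXO factors. In iTreg, Foxo1 had 621 CPM in Ezh2KO.165, against a mean of 149 CPM in the other 2, and 494 CPM in Ezh2fl/fl.177, against 248 CPM. These libraries also had the most Bcl2l11 and Bbc3 RNA of their groups, but 81.8% of all genes tested deviated in the same direction in both. Over the other 2 libraries of each group, mean Foxo1 was lower in Ezh2KO (149 CPM) than in Ezh2fl/fl (248 CPM). In the same libraries mean Bcl2l11 (188 against 96.0 CPM) and Bbc3 (25.7 against 18.4 CPM) were higher in Ezh2KO. The motifs were chosen after these values were seen, and a link of Foxo1 to Bcl2l11 or Bbc3 was not tested. RefSeq promoter windows, from 250 bases before to 50 after a start site (GRCm38.p6), were matched for 9 of the 10 genes, 15 windows in all. The FOXO motif GTAAACA, searched on both strands (TGTTTAC on the other), was found in 2 of the 15 windows, against 1199 of 32851 windows of all genes (3.65%). The 2 windows belong to Bcl2l11 and Bbc3. The stretches that hold the motif are both printed from the plus strand, with it in capitals. It reads GTAAACA in Bcl2l11 and TGTTTAC, the motif on the other strand, in Bbc3. In Bcl2l11 it starts 227 bases before a start site, in the stretch chr2:128125788-128125877, and in Bbc3 167 bases before a start site, in chr7:16310034-16310160. The Bbc3 stretch lies inside the gene interval listed for Bbc3 (chr7:16309616-16318205), so the start site used there is not the start of that interval.
Bcl2l11: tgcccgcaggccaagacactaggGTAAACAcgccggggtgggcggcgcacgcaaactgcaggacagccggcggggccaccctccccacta
Bbc3: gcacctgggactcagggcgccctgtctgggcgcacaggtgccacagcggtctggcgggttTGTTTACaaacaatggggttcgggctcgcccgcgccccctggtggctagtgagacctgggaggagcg
The STAT motif TTCNNNGAA, which reads the same on both strands, was in 0 of the 15 windows and in 2726 of 32851 (8.30%). A match describes letters in the window and not a bound site, and no FOXO or STAT binding was measured.

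Bcl2l11 RNA was set against Bcl2 RNA within each library as the ratio of their read counts, which needs no scaling between libraries. The ratio is not corrected for transcript length, and no protein was measured. There were 0.217, 0.213 and 1.07 Bcl2l11 reads per Bcl2 read in iTreg Ezh2KO.150, then Ezh2KO.153, then Ezh2KO.165, against 0.136, 0.143 and 0.548 in iTreg libraries Ezh2fl/fl.154, Ezh2fl/fl.155 and Ezh2fl/fl.177. In Th0 the ratios were 0.171, 0.194 and 0.167 in Ezh2KO and 0.109, 0.0847 and 0.0842 in Ezh2fl/fl. In Th0 every Ezh2KO ratio was above every Ezh2fl/fl ratio. In iTreg the groups overlapped, with Ezh2fl/fl.177 (0.548) above Ezh2KO.150 (0.217) and Ezh2KO.153 (0.213). Mcl1 reads per Bcl2 read were 0.327, 0.314 and 2.74 in iTreg Ezh2KO against 0.558, 0.650 and 1.61 in iTreg Ezh2fl/fl, and 0.438, 0.431 and 0.394 in Th0 Ezh2KO against 0.464, 0.407 and 0.416 in Th0 Ezh2fl/fl. Library Ezh2KO.165 lay far above the other 2 Ezh2KO iTreg libraries, and the Th0 groups overlapped. Bbc3 reads per Pmaip1 read were 0.477, 0.425 and 2.28 in iTreg Ezh2KO and 0.694, 0.694 and 2.52 in iTreg Ezh2fl/fl, and 0.541, 0.540 and 0.514 in Th0 Ezh2KO against 1.61, 1.10 and 1.37 in Th0 Ezh2fl/fl. In Th0 the genotypes were apart in this ratio, with fewer Bbc3 reads per Pmaip1 read in every Ezh2KO library. No test was made of these ratios, whose unequal change does not show which gene of a pair moved.

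**Figure D4:**
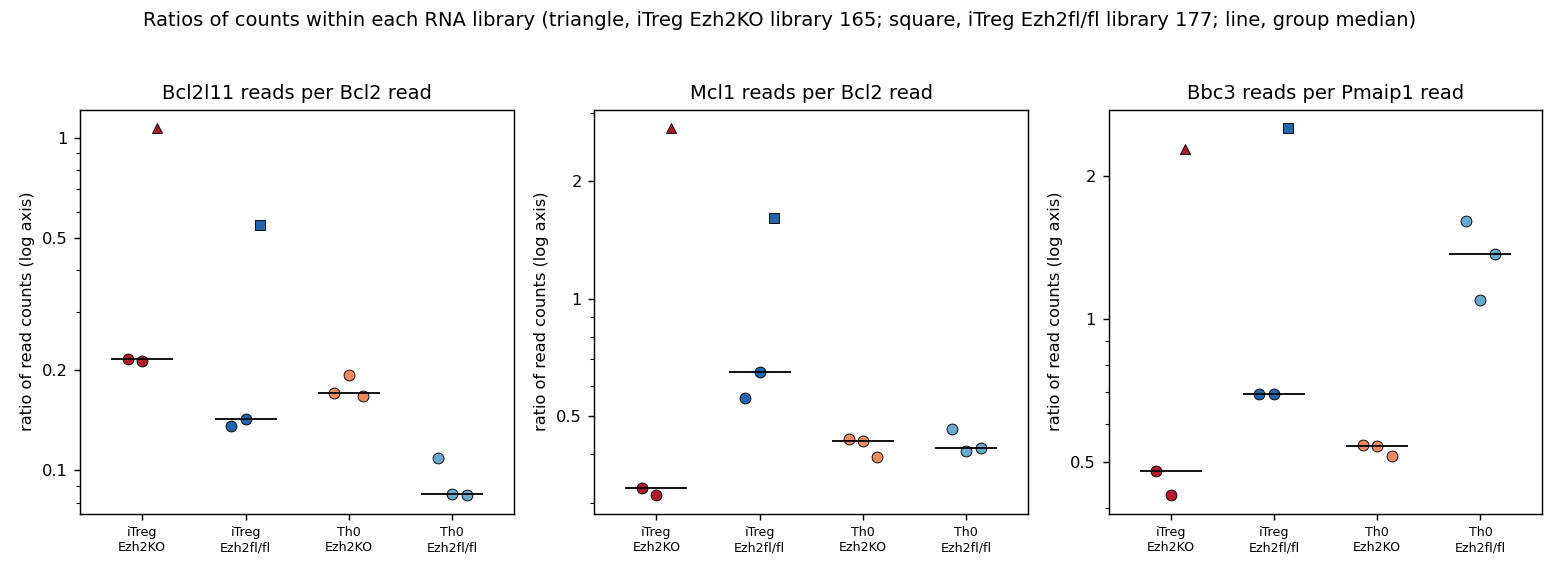
Ratio of read counts of 2 genes within each RNA library (y axis, log scale) by group (x axis), for Bcl2l11 per Bcl2, Mcl1 per Bcl2 and Bbc3 per Pmaip1, with 1 point per library and a line at the group median. The triangle (iTreg Ezh2KO.165) and square (iTreg Ezh2fl/fl.177) are the highest of their groups in all 3 panels, and the Th0 Ezh2KO points lie above the Th0 Ezh2fl/fl points for Bcl2l11 per Bcl2 and below them for Bbc3 per Pmaip1.

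In iTreg, libraries Ezh2KO.165 and Ezh2fl/fl.177 deviated from the other 2 libraries of their groups in the same direction for all 10 members. Of all genes tested 81.8% did so, and of the 18 upstream regulators 14. Of the 11 other BCL-2 family genes tested, 5 did so and 6 went opposite ways. Nothing particular to the family is read from these counts. Against the mean of the other 2 libraries of its group, iTreg Ezh2KO.165 had 731 CPM of Mcl1 against 279.5, 58.7 CPM of Bbc3 against 25.7 and 20.0 CPM of Bcl2l1 against 72.8. For iTreg Ezh2fl/fl.177 the same values were 637 CPM against 416 for Mcl1, 46.9 against 18.4 for Bbc3 and 21.0 against 55.5 for Bcl2l1. Of the regulators, chosen here after their values were seen, Il7r, the receptor chain for the survival cytokine IL-7, had 651 CPM in Ezh2KO.165 against 28.0, and 293 CPM in Ezh2fl/fl.177 against 48.8. Myc, which drives growth after activation, had 46.8 CPM in Ezh2KO.165 against 289, and 121 CPM in Ezh2fl/fl.177 against 276. E2f1, a cell cycle factor, had 7.90 CPM in Ezh2KO.165 against 59.5, and 18.9 CPM in Ezh2fl/fl.177 against 42.8. Il2rb, Il2rg, Mdm2 and Trp73 went opposite ways, with log2 ratios to the other 2 libraries of -0.22 in Ezh2KO.165 and 0.21 in Ezh2fl/fl.177 for Il2rb, a chain of the IL-2 receptor. These libraries were found by their counts and not by a label, and these values describe them without a test.

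Beyond the 10, Bmf, Bcl2l2 and Bcl2l14 rose and Bcl2l12 fell with Ezh2 deletion in iTreg. Of 14 further BCL-2 family genes 11 were tested. Those 3 higher and 1 lower stand beside 9.45% higher and 7.26% lower of all genes in iTreg. In Th0 0 passed, beside 12% of all genes, 3 had an unadjusted p under 0.05, beside 23.2%, and DESeq2 called 0, beside 15.9%. The median log2 change of the 11 was 0.10 in iTreg and 0.31 in Th0. Bmf, encoding a BH3-only protein held at the cytoskeleton, had 29.3, 27.1 and 51.4 CPM in iTreg Ezh2KO against 3.73, 3.88 and 15.2 CPM in iTreg Ezh2fl/fl, a log2 change of 2.25 (95% interval 1.11 to 3.39, adjusted p = 0.0136). No iTreg Ezh2KO library overlapped the controls, although Ezh2KO.165 and Ezh2fl/fl.177 were the highest of their groups, and without Ezh2fl/fl.177 the log2 change was 3.24. In Th0 Bmf had 2.74, 3.94 and 3.02 CPM in Ezh2KO against 1.99, 1.71 and 1.95 CPM in Ezh2fl/fl, a log2 change of 0.75 (95% interval -0.43 to 1.92, adjusted p = 0.488). The test of the difference between cultures gave 1.5 (95% interval -0.11 to 3.11, adjusted p = 0.373) over 12 libraries. Bcl2l2, encoding the survival factor BCL-W, had 28.0, 27.5 and 37.3 CPM in iTreg Ezh2KO against 17.6, 14.0 and 15.1 CPM in iTreg Ezh2fl/fl, a log2 change of 1.00 (95% interval 0.66 to 1.33, adjusted p = 0.00146). Bcl2l14 rose by 1.51 (adjusted p = 0.0124) at under 1 CPM, and Bcl2l12 fell by 0.52 (adjusted p = 0.0205) on the log2 scale. With the 6 iTreg libraries alone none of these 4 passed, with adjusted p of 0.147, 0.0525, 0.0709 and 0.24 for Bmf, Bcl2l2, Bcl2l14 and Bcl2l12. Leaving out 1 library ended the call of Bmf (without Ezh2fl/fl.155, 0.0516), of Bcl2l14 (without Ezh2fl/fl.154, 0.0529) and of Bcl2l12 (up to 0.0896 without Ezh2fl/fl.155, and also without Ezh2KO.150 or Ezh2fl/fl.154).

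Between cultures, 11 other family genes were tested. In Ezh2KO cells 2 rose and 3 fell in iTreg, beside 16.6% higher and 8.75% lower of all genes. In Ezh2fl/fl cells 2 rose and 4 fell, beside 19.9% higher and 11.5% lower. Bcl2l2 rose in both genotypes, by 0.91 to 1.13 (Ezh2KO) and 0.36 to 0.53 (Ezh2fl/fl) on the log2 scale over single-library omissions. Bcl2l14 fell in Ezh2fl/fl. The genes of the survival factor A1 fell in both genotypes. The genes of this paragraph are named after their values were seen. Bcl2a1b had 3.18, 3.00 and 2.88 CPM in iTreg and 11.05, 13.2 and 9.60 CPM in Th0 cells of Ezh2KO mice, and 2.36, 2.08 and 3.91 CPM in iTreg and 10.5, 10.97 and 13.1 CPM in Th0 cells of Ezh2fl/fl mice. Its log2 change was -1.93 (95% interval -2.45 to -1.41, adjusted p = 0.00091) in Ezh2KO and -2.11 (95% interval -2.64 to -1.59, adjusted p = 0.00031) in Ezh2fl/fl. Bcl2a1a and Bcl2a1d gave changes of -2.40 and -2.48 in Ezh2KO and -2.43 and -2.46 in Ezh2fl/fl. These are near-identical copies, so the split of reads between them is uncertain. Their calls held in every alternative tried, including the omission of libraries Ezh2KO.165 and Ezh2fl/fl.177. Bmf rose in iTreg culture, by 3.44 (adjusted p = 0.00308) in Ezh2KO and 1.94 (adjusted p = 0.0217) in Ezh2fl/fl, and the call in Ezh2fl/fl was lost when any Th0 Ezh2fl/fl library was left out, with an adjusted p of up to 0.0782, and with limma-voom (0.0706). Without iTreg Ezh2fl/fl.177 that change was 0.95 (adjusted p = 0.0492).

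Downstream of the mitochondria, 15 genes of the apoptosome, the caspases and their inhibitors were tested. With Ezh2 deletion 2 fell and 0 rose in iTreg, beside 7.26% lower and 9.45% higher of all genes. In Th0 0 passed, beside 12% of all genes, 1 had an unadjusted p under 0.05, beside 23.2%, and DESeq2 called 1, beside 15.9%. Their median log2 change was -0.16 in iTreg and -0.03 in Th0. Diablo, encoding a mitochondrial protein that blocks inhibitors of apoptosis, had 37.0, 37.1 and 28.2 CPM in iTreg Ezh2KO against 102, 113 and 41.1 CPM in iTreg Ezh2fl/fl, a log2 change of -1.32 (95% interval -2.00 to -0.64, adjusted p = 0.0145). It was lower in every Ezh2KO library, Ezh2fl/fl.177 lay near the Ezh2KO range, and the call was lost without Ezh2fl/fl.154 (0.0535) or Ezh2fl/fl.155 (0.062). Birc3, encoding one such inhibitor, fell by 0.50 on the log2 scale (adjusted p = 0.0111). Neither passed in the 6 iTreg libraries alone, with an adjusted p of 0.159 for Diablo and 0.159 for Birc3.

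In the death receptor pathway, the extrinsic arm that Bid joins to mitochondria, 12 genes were tested; 3 rose in Th0, beside 8.74% of all genes, 2 rose in iTreg, beside 9.45%, and 0 fell in either culture. Fasl, the ligand of FAS, had 41.2, 56.7 and 44.8 CPM in Th0 Ezh2KO against 4.80, 4.00 and 4.20 CPM in Th0 Ezh2fl/fl, a log2 change of 3.42 (95% interval 2.48 to 4.36, adjusted p = 0.000812). In iTreg it had 60.5, 71.3 and 18.6 CPM in Ezh2KO against 2.13, 2.20 and 2.66 CPM in Ezh2fl/fl, a log2 change of 4.43 (95% interval 3.43 to 5.43, adjusted p = 0.000194). Both cultures had every Ezh2KO library above every control, and the calls held in every alternative tried. NK cell markers were higher in the same Ezh2KO libraries, while Ncr1 and Klra8 had few or no reads, as given above. Fasl is also made by NK cells, and which cells made it here was not tested. Tnfsf10, encoding the death ligand TRAIL, had 89.4, 100.1 and 93.2 CPM in Th0 Ezh2KO against 36.7, 42.3 and 41.3 CPM in Th0 Ezh2fl/fl, a log2 change of 1.199 (95% interval 0.65 to 1.74, adjusted p = 0.011), and 0.0575 without Ezh2fl/fl.173. Tnfrsf1a, a TNF receptor, rose by 0.41 in Th0 (adjusted p = 0.0117) and 0.41 in iTreg (adjusted p = 0.00869), a call lost in Th0 without Ezh2fl/fl.176 (0.0546) or Ezh2fl/fl.177 (0.0568), and in iTreg with the 6 iTreg libraries alone (0.181). The median log2 change of the 12 genes was 0.14 in Th0 and 0.06 in iTreg.

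Of 18 genes upstream of the family (cytokine receptors, kinases and transcription factors), 2 fell in Th0 with Ezh2 deletion, beside 3.22% of all genes, and in iTreg 3 fell and 1 rose, beside 7.26% lower and 9.45% higher. They had a median log2 change of -0.13 in Th0 and -0.08 in iTreg. Pim1, a survival kinase induced by STAT5, had 226, 228 and 177 CPM in iTreg Ezh2KO against 654, 719 and 561 CPM in iTreg Ezh2fl/fl, a log2 change of -1.61 (95% interval -1.98 to -1.25, adjusted p = 0.000194). In Th0 Pim1 had 286, 199.9 and 228 CPM in Ezh2KO against 394, 393 and 419.6 CPM in Ezh2fl/fl, a log2 change of -0.79 (95% interval -1.15 to -0.43, adjusted p = 0.0105), and its groups were apart in both cultures. Pim2, of the same kinase family, had 267, 308 and 133 CPM in iTreg Ezh2KO against 61.3, 51.0 and 35.3 CPM in iTreg Ezh2fl/fl, a log2 change of 2.27 (95% interval 1.59 to 2.94, adjusted p = 0.00084), and the test of the difference between cultures gave 2.33 (95% interval 1.403 to 3.25, adjusted p = 0.0129). The calls of Pim1 and of Pim2 in iTreg held in every alternative tried. Il2ra, the high-affinity IL-2 receptor chain, had 1294, 1279 and 256 CPM in iTreg Ezh2KO against 3838, 3989 and 1954 CPM in iTreg Ezh2fl/fl, and 904, 551 and 700.0 CPM in Th0 Ezh2KO against 2485, 2641 and 2604 CPM in Th0 Ezh2fl/fl. Its log2 change was -1.79 (95% interval -2.95 to -0.62, adjusted p = 0.0417) in iTreg and -1.88 (95% interval -3.04 to -0.71, adjusted p = 0.0441) in Th0, close to the threshold: in the 6 iTreg libraries alone the adjusted p was 0.247. With limma-voom it was 0.0586 in Th0. In Th0 the call was lost on leaving out any Th0 library or iTreg Ezh2KO.150, Ezh2fl/fl.154 or Ezh2fl/fl.155, with an adjusted p of up to 0.163 (without Th0 Ezh2KO.174), and in iTreg on leaving out any Th0 library, Ezh2KO.150 or Ezh2KO.153, or Ezh2fl/fl.154 or Ezh2fl/fl.155, up to (without Ezh2fl/fl.155) 0.126. Mapk8, encoding the stress kinase JNK1 that acts on BIM, fell by 0.38 in iTreg on the log2 scale (adjusted p = 0.0426), and its call was lost on leaving out any 1 library other than iTreg Ezh2KO.165, up to 0.149 without Ezh2fl/fl.155, and in the 6 iTreg libraries alone (0.3).

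H3K27me3 was counted over whole gene intervals (mm10) in Th0 cells, and its density is given as CPM per kilobase. Over all intervals the median density was 0.952 in Ezh2KO and 0.919 in Ezh2fl/fl cells, and the 90th percentile 1.31 in Ezh2KO and 2.20 in Ezh2fl/fl, so the spread of densities was narrower in Ezh2KO cells. Of the 10 genes, Pmaip1 alone lay above that percentile in control cells. Its interval, chr18:66458604-66465550, had 1.11 and 1.202 in Ezh2KO libraries 10 and 9, against 2.38 and 2.42 in Ezh2fl/fl libraries 33 and 7, at percentile 91.9 of control density. The Ezh2KO values were under those of both controls, and lay above the Ezh2KO median. The log2 change was -1.06 (95% interval -1.59 to -0.53, adjusted p = 0.00484), with scaling by library size.

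The other 8 members tested lay under the control median, and each had a higher mean density in Ezh2KO than in Ezh2fl/fl cells. Bcl2 (chr1:106538178-106714274) had 0.936 and 0.978 in Ezh2KO against 0.565 and 0.434 in Ezh2fl/fl, a log2 change of 0.94 (95% interval 0.61 to 1.27, adjusted p = 0.000765). Bcl2l1 (chr2:152780668-152831728) had 0.905 and 0.985 against 0.540 and 0.514, a log2 change of 0.84 (95% interval 0.42 to 1.27, adjusted p = 0.00487). Bax (chr7:45461695-45466898) had 0.700 and 0.828 against 0.432 and 0.185 from 55 and 48 reads in Ezh2KO and 25 and 12 in Ezh2fl/fl, a log2 change of 1.31 (95% interval 0.45 to 2.18, adjusted p = 0.0157). All 3 passed the test with groups that did not overlap, and their control densities lay between percentiles 4.46 and 30.0. Bid (chr6:120891930-120916853) rose by 0.62 (95% interval 0.11 to 1.13, adjusted p = 0.042), but did not pass with TMM scaling, where its log2 change was 0.39 (adjusted p = 0.178). Mcl1 (chr3:95658721-95663176), Bad (chr19:6941861-6951898), Bbc3 (chr7:16309616-16318205) and Bcl2l11 (chr2:128126038-128162547) were not called: the log2 change was 0.94 for Mcl1 (adjusted p = 0.0542), 0.66 for Bad (0.0587), 0.42 for Bbc3 (0.252) and 0.23 for Bcl2l11 (0.365). The densest of these 4 in control cells was Bcl2l11, with 1.00 and 0.836 in Ezh2KO against 0.810 and 0.756 in Ezh2fl/fl. Bak1 (chr17:27019810-27029009) had no counted reads in any library. Its interval overlaps that of Ggnbp1, so a count of 0 does not bound its density, and it was not tested. The intervals of Bid and Bad overlap those of Bcl2l13 and Gpr137, and the listed density may miss reads in the shared stretch.

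In all, 5 of the 9 intervals tested were called by edgeR's test, 4 higher and 1 lower, where 52.9% of 20376 intervals were called, 32.2% higher and 20.6% lower. DESeq2 called 5 of the 9, where it called 54.4% of intervals. In each of the 9 the Ezh2KO and Ezh2fl/fl densities did not overlap, against 79.7% of intervals. The median log2 change of all intervals was 0.21 with library size and -0.02 with TMM, under which 52.3% were called, 24.3% higher and 28% lower. Under TMM the log2 change was 0.71 for Bcl2, 0.61 for Bcl2l1, 1.09 for Bax and -1.29 for Pmaip1, and all 4 were called. Leaving out either Ezh2KO library left 0 intervals called by edgeR's test, members included, with 3 members at an unadjusted p under 0.05 in each case and 7223 (without Ezh2KO 10) or 7401 (without Ezh2KO 9) of all intervals. Without Ezh2fl/fl 7, Bax had a log2 change of 0.81 and missed the threshold (0.0757) and Mcl1 (0.00346) and Bad (0.0162) passed; without Ezh2fl/fl 33, Bax had 2.02. Neither an input nor a spike-in was used here, so a gain in density of a weakly marked interval cannot be told apart from a lower share of reads in strongly marked ones.

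Among the other family genes, Hrk, a BH3-only gene known from neurons, had the highest control density; it and Bmf are named here after their values were seen. Hrk had 1.18 and 1.197 in Ezh2KO against 3.48 and 3.96 in Ezh2fl/fl, at percentile 96.8, and a log2 change of -1.64 (95% interval -2.02 to -1.27, adjusted p = 9.95e-05). Its RNA did not exceed 0.533 CPM in any library. Bmf had 0.914 and 0.785 against 1.23 and 1.66, a log2 change of -0.77 (95% interval -1.27 to -0.26, adjusted p = 0.016). Set beside RNA of Th0 cells, Pmaip1 had a lower mark and a log2 RNA change of 0.86, Bmf a lower mark and 0.75, and Hrk a lower mark with 0.348, 0.409 and 0.105 CPM in Ezh2KO and 0.163, 0.148 and 0.267 CPM in Ezh2fl/fl. Bcl2l1 and Bax had a higher density and RNA changes of 0.48 and 0.29, and Bcl2 had a higher density and -0.16. Bid, with a higher density by library size scaling, had an RNA change of 0.38. Among members whose mark was tested and not called, the RNA change was 0.78 for Bcl2l11, 0.03 for Bad, -0.19 for Mcl1 and -0.48 for Bbc3. None of these RNA changes passed the test over 12 libraries.

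**Figure D5:**
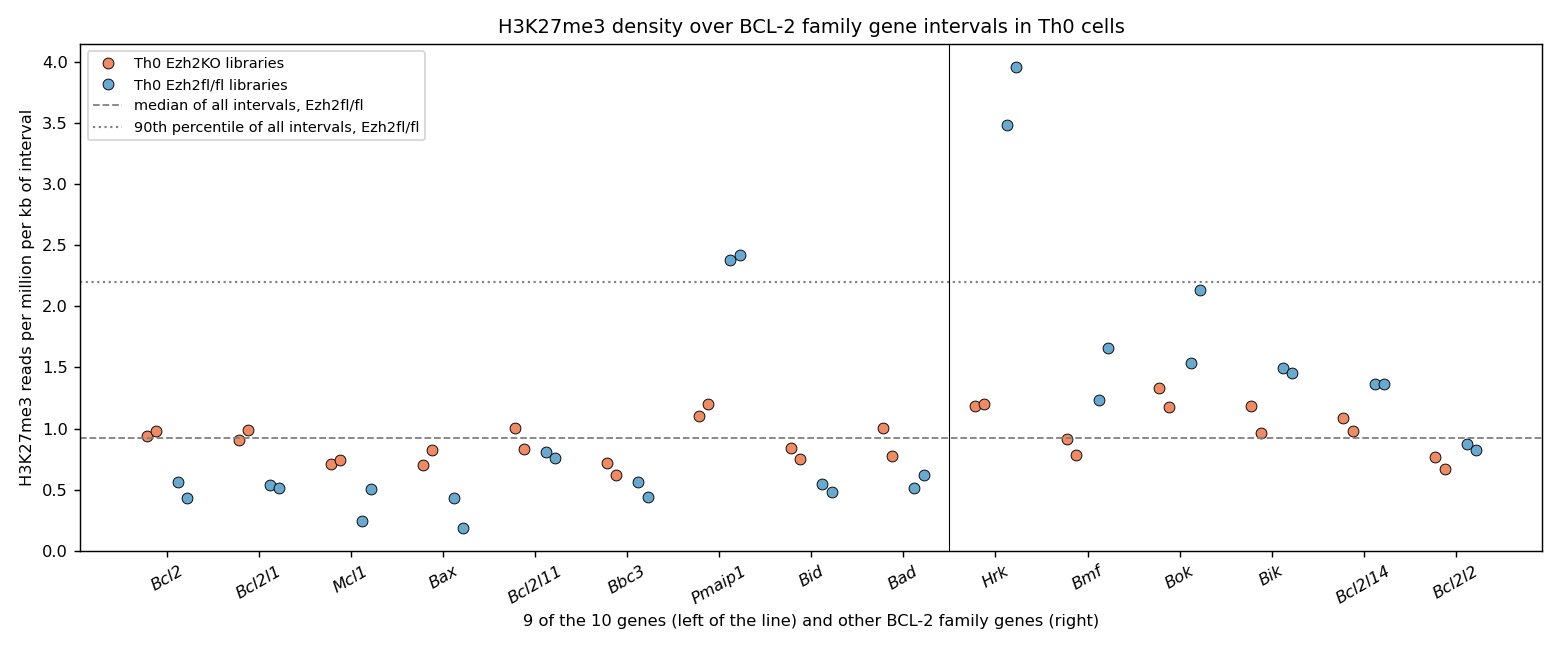
H3K27me3 density (y axis, CPM per kilobase) over the intervals of 9 of the 10 genes and of 6 other family genes (x axis), with 1 point for each of the 2 Th0 Ezh2KO and 2 Th0 Ezh2fl/fl libraries, and lines at the median and 90th percentile of all intervals in Ezh2fl/fl cells. Pmaip1 and Hrk stand above the 90th percentile line in both controls and under it in both Ezh2KO libraries, while Bcl2, Bcl2l1 and Bax lie under the median line in the controls.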

How the data were processed

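RNA of 12 libraries and H3K27me3 chromatin of 4 libraries were measured. The authors deposited raw read counts per gene or gene interval, made per the submitters' processing notes with Trimmomatic 0.30, TopHat2 2.0.6 (RNA), Bowtie2 2.1.0 (ChIP) and featureCounts 1.4.2 on mm10; the use of strand is not given in the sources used here. Reads shared by overlapping genes or near-identical copies can be lost or split in such counts. The RNA libraries held 21910114 to 28443427 reads. Counts were tested with edgeR 4.0.16 (R 4.3.3): quasi-likelihood F test, two-sided, a minimum count of 10 in filterByExpr, Benjamini-Hochberg adjustment at 0.05, TMM scaling for RNA and library size for ChIP, and 1 fit of 4 groups for RNA. Standard errors and 95% intervals come from the estimate and its F value. Scripts were tested on simulated data. Alternatives used DESeq2 1.42.0, limma 3.58.1, other scalings and filters, and left out each library. All 10 members were named, with Ezh2, Foxp3, Cd4 and up to 5 called genes per pathway list and culture, plus the genes given as chosen after their values were seen; no gene was named for likeness to a member, since none of the 10 was called for genotype. Members and lists were chosen with earlier results of these data known. Library numbers are shared between genotypes by none, and between cultures by Ezh2KO.165 and Ezh2fl/fl.177 alone. The deviations of these from their group means correlated at 0.0445 and -0.00307. Since their iTreg libraries stood apart from their groups, these correlations cannot show whether a number marks a shared mouse. Both libraries named Ezh2KO.165 had the high Xist and low Ddx3y reads given above. Libraries were treated as independent, with the library number as a block in an alternative. The design calls the libraries biological replicates.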

Additional observations from a re-analysis of the deposited data

Results flagged for a closer look

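Pim2 stood out because its change with Ezh2 deletion differed between the cultures by the test of the difference itself. The difference between the log2 changes, iTreg minus Th0, was 2.33 (SE 0.42, adjusted p = 0.0129, edgeR's quasi-likelihood test with Benjamini-Hochberg adjustment), with changes of 2.27 in iTreg and -0.06 in Th0.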

How the results depend on the processing

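Over the 12 libraries, the counts of genes called moved most with the 2 iTreg libraries that stood apart. Without iTreg Ezh2KO.165 and Ezh2fl/fl.177 (genes called first, members in parentheses) Th0 genotype gave 6697 (9), iTreg genotype 7409 (9), the difference between cultures 5347 (5), culture in Ezh2KO 7481 (9) and culture in Ezh2fl/fl 8673 (8), against 1536 (0), 2147 (0), 577 (0), 3262 (3) and 4027 (3) over all libraries. Without both libraries named Ezh2KO.165, chosen after seeing the data, it was 2555 (1), 5391 (5), 1805 (0), 2501 (2) and 7989 (7). With the 6 libraries of a culture alone it was 6397 (9) in Th0 and 539 (0) in iTreg, and with DESeq2 2365 genes for Th0 and 1213 for the difference, 1 member in iTreg and 6 members for culture in each genotype. Single-library omissions gave 799 to 3529 genes and 0 to 1 members for Th0, 1376 to 5763 and 0 to 6 for iTreg, 271 to 2552 and 0 to 1 for the difference, 1110 to 4316 and 0 to 7 for culture in Ezh2KO, 2004 to 8195 and 0 to 7 for culture in Ezh2fl/fl, and 0 to 12648 intervals and 0 to 6 members for H3K27me3. The cause was not tested.

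The following log2 changes crossed 0, and none was called over all libraries. Without both Ezh2KO.165: Bad -0.0105 (Th0) and -0.0767 (iTreg), Bbc3 -0.12 (iTreg), and for the difference Bcl2l1 0.27, Mcl1 -0.58, Bak1 0.27 and Bad -0.0662. Without iTreg Ezh2KO.165 and Ezh2fl/fl.177: Bad -0.0590 (iTreg) and -0.0389 (culture, Ezh2KO), Bcl2 0.21 and Bbc3 -0.0036 (culture, Ezh2fl/fl), and for the difference Bcl2l11 0.19, Mcl1 -0.38, Bak1 0.13 and Bad -0.0896. Library size scaling: Mcl1 -0.0310 (difference) and Bcl2 0.0530 (culture, Ezh2fl/fl). Median scaling of H3K27me3: Bcl2l11 -0.0255. Single-library omissions: Bad -0.0169 to 0.119 (Th0), -0.0775 to 0.160 (iTreg) and -0.0398 to 0.195 (culture, Ezh2KO); in iTreg Bcl2 -0.0610 to 0.56, Bcl2l1 -0.0089 to 0.73, Mcl1 -0.80 to 0.0583 and Bbc3 -0.11 to 0.99; for the difference Bcl2l11 -0.31 to 0.42, Bid -0.19 to 0.59, Pmaip1 -0.12 to 0.40, Bcl2l1 -0.49 to 0.24, Mcl1 -0.61 to 0.25, Bak1 -0.22 to 0.28 and Bad -0.11 to 0.13; for culture in Ezh2fl/fl Bcl2 -0.15 to 0.21 and Bbc3 -0.0079 to 0.86.

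With the library number as a replicate block (limma-voom, correlation -0.00866) the counts were 1441, 2083, 509, 2960 and 3841 genes, against 1438, 2081, 512, 3016 and 3862 with independent libraries. For the difference, the block gave Bcl2l11 0.0031, Mcl1 -0.12 and Bid -0.0103, and independent libraries 0.0019, -0.12 and -0.0124. For culture in Ezh2KO Bbc3 missed the threshold under the block (adjusted p = 0.0504), and Bcl2l1 passed it both under the block (0.0491) and with independent libraries (0.0483). With 3 libraries a group, and 2 for the mark, small changes in either direction were within the intervals given.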
